A study of Mus musculus with 12 samples.

Results

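The transcripts described here come from the imprinted Dlk1-Dio3 region of mouse chromosome 12, in which the miR379-410 cluster lies. They are 9 rows of a count table of 33250 gene symbols. They comprise the non-coding Meg3, Rian, Mirg, B830012L14Rik and Gm37899 and the protein-coding Dlk1, Dio3, Rtl1 and Begain. The 9 were selected by name, as transcripts around the targeted microRNAs, with their levels in the 2 genotypes already known, so the differences between genotypes below are a description.

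RNA sequencing of polyA RNA from bulk hippocampus covered 12 male mice, 6 of them wild type (WT) and 6 with a conditional miR379-410 knockout (cKO). In the cKO animals, Cre acts in Emx1-positive cells, which in the hippocampus include the glutamatergic neurons that the study addresses. Interneurons, microglia, vessels and other cells without a history of Emx1 expression keep the cluster and were sequenced together with the targeted cells. Ages, and whether WT animals were littermates or carried Cre or floxed alleles, are not stated, and p-values measure the spread between these 12 animals.

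Imprinted genes of this region are expressed mainly from a single parental chromosome. Meg3, Rian, Mirg and the microRNAs are transcribed mainly from the maternal copy, and Dlk1, Rtl1 and Dio3 mainly from the paternal copy. The microRNAs of the cluster are cut out of long maternal transcripts and are abundant in neurons, where several act on dendrites and synapses. Begain lies at the outer edge of the region and encodes a protein of the postsynapse. Parental origin cannot be read from these counts.

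The annotated miRNA genes from Mir379 to Mir410 span 34736 bases, from 109709060 to 109743795 on chromosome 12 (GRCm38). The span holds 43 miRNA genes, of which 38 lie on the plus strand and 5 on the minus strand. RefSeq (GRCm38.p6) lists 71 mature miRNAs from 38 of these genes, with 64 different seeds, the bases 2 to 8 that pair with a target. A total of 7 seeds are shared by 2 miRNAs each. The sequences below show 3 of the shared seeds, in capitals, and then the miRNAs miR-134-5p, miR-485-3p and miR-410-3p, whose seeds were shared with no other miRNA of the cluster.
miR-379-5p: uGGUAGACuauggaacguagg
miR-1193-5p: uGGUAGACcggugacguaca
miR-379-3p: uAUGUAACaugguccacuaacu
miR-411-3p: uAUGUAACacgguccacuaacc
miR-494-5p: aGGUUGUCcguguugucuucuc
miR-410-5p: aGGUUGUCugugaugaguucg
miR-134-5p: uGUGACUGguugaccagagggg
miR-485-3p: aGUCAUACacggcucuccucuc
miR-410-3p: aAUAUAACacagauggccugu
Mature miRNAs have no poly(A) tail, and only 6 of the 43 miRNA genes had a row in the table (Mir1197, Mir329, Mir666, Mir667, Gm27379 and Mir541). No library had more than 4 counts in any of these rows, so they do not check the genotype labels.

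The libraries held between 42360624 and 51095816 estimated counts each. Levels are given as CPM, which divides each count by the size of its library, after TMM scaling. Hippocampal neurons were present in every library: summed pyramidal neuron markers ranged from 2051 to 2319 CPM in WT and from 2078 to 2229 CPM in cKO, and dentate granule neuron markers from 513 to 601 and from 392 to 588 CPM. All 7 hypothalamic markers stayed below 1 CPM on average. All 6 thalamic markers averaged at least 1 CPM, and their sums ranged from 91.8 to 117 CPM in WT and from 86.3 to 108 CPM in cKO. Whether they came from neighbouring tissue was not tested. Choroid plexus markers varied most, from 222 to 11410 CPM in WT and from 158 to 7778 CPM in cKO, with all 12 markers detected. The lowest sums were in WT 2, WT 3 and cKO 4, and fold changes without these 3 libraries are given below. The library labelled cKO 1 stood with the WT libraries at some transcripts, described below, and its label could not be checked by the deleted microRNAs.

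Meg3, the maternally expressed long non-coding RNA next to the region's imprinting control, was among the most abundant RNAs of the hippocampus. It took between 0.435% and 0.560% of all counts in WT and between 0.343% and 0.590% in cKO, and ranked between 7 and 14 among all rows. Meg3 had 4320 to 5613 CPM in WT, with a median of 4704 CPM, and 3416 to 6003 CPM in cKO, with a median of 4696 CPM. The lowest of the 12 was the library labelled cKO 1 and the highest was cKO 4, and the other cKO animals lay within the WT range. The WT animals had a mean of 4835 ± 476 CPM (SD, n = 6) and the cKO animals one of 4700 ± 838 CPM (SD, n = 6), a log2 fold change of -0.04 ± 0.11 (SE) in cKO against WT and of -0.12 ± 0.11 (SE) without WT 2, WT 3 and cKO 4.

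Rian, a transcript that hosts 13 annotated small nucleolar RNA genes and 4 miRNA genes, had 577 to 709 CPM in WT, with a median of 604 CPM. In cKO it had 497 to 777 CPM, with a median of 634 CPM. The library labelled cKO 1 was again the lowest and cKO 4 the highest of the 12. For Rian the log2 fold change was 0.02 ± 0.09 (SE), smaller than its error, and -0.05 ± 0.08 (SE) without WT 2, WT 3 and cKO 4. Gm26945, a separate non-coding row that lies inside Rian on the same strand, had a log2 fold change of -0.27 ± 0.22 (SE).

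Mirg is the annotated RNA that overlaps the cluster itself. Of its 19697 bases (109729764 to 109749460, plus strand), 14032 lie between Mir379 and Mir410, and 15 miRNA genes lie inside it. Of 7292 exonic bases, 5678 are within the cluster and 1614 beyond Mir410. Mirg had 32.5, 28.7, 31.6, 28.4, 28.8 and 34.1 CPM in WT 1 to 6. In the library labelled cKO 1 it had 23.6 CPM, and in cKO 2 to 6 it had 34.0, 32.9, 46.4, 34.9 and 32.6 CPM. The groups overlapped, with the lowest value again in the library labelled cKO 1 and the highest in cKO 4. The log2 fold change was 0.15 ± 0.12 (SE), 0.03 ± 0.11 (SE) without WT 2, WT 3 and cKO 4, and between 0.04 (without cKO 4) and 0.23 (without the library labelled cKO 1) when 1 animal was left out.

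Which bases are deleted is not stated, and the counts are not split by exon, so the level of Mirg does not check the deletion. Mirg ends downstream of Mir410, in the stretch below, where the capitals mark a polyadenylation hexamer (chr12:109749399-109749458, GRCm38, plus strand).
Mirg 3′ end: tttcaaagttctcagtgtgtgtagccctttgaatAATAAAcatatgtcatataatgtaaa
A hexamer of this kind, AATAAA or ATTAAA, was found in the last 60 bases of the longest annotated transcript of 7 of the 9 genes. The annotated ends of B830012L14Rik and Gm37899 held neither.

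**Figure D1:**
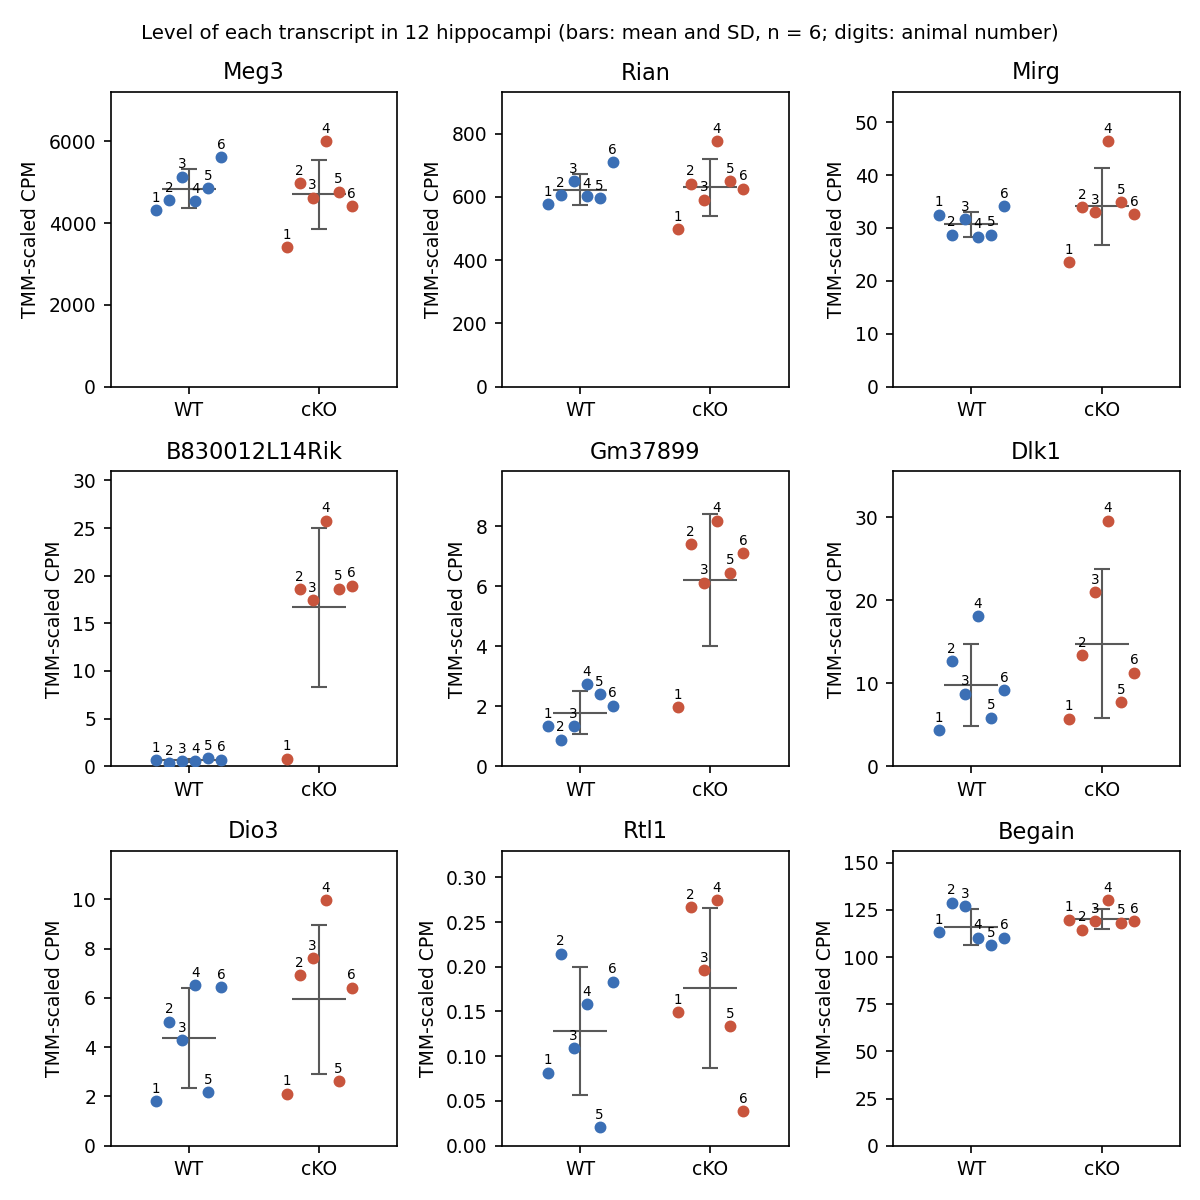
TMM-scaled CPM (y axis, linear, from 0) of the 9 transcripts in each WT (blue) and cKO (red) animal, with the animal number above each point and bars for the mean and SD of 6 animals. The library labelled cKO 1 lies with WT at B830012L14Rik (0.788 CPM) and Gm37899 (1.96 CPM), while cKO 2 to 6 lie above every WT animal at both.

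B830012L14Rik and Gm37899 had the largest differences between genotypes among the 9 transcripts. Both lie on the plus strand between Rian and Mir379 and outside the cluster. B830012L14Rik, annotated as a long intergenic RNA with 1 transcript model, runs from 109695586 to 109702587 and ends 6472 bases before Mir379. Gm37899, a single-exon model still to be tested experimentally, runs from 109668869 to 109677585 and ends 31474 bases before Mir379. No function is given here for either.

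B830012L14Rik had 0.652, 0.310, 0.525, 0.554 and 0.865 CPM in WT 1 to 5 and 0.693 CPM in WT 6. In cKO 2 to 6 it had 18.6, 17.4, 25.8, 18.6 and 18.95 CPM, and in the library labelled cKO 1 it had 0.788 CPM. A total of 5 of 6 cKO libraries therefore lay above every WT library, and 1 lay within the WT range. In counts these were 13 to 42 in WT, 37 in the library labelled cKO 1 and 836 to 1221 in cKO 2 to 6, whole numbers in every library. The WT mean was 0.5998 ± 0.186 CPM (SD, n = 6), and the mean of all 6 cKO libraries was 16.7 ± 8.35 CPM (SD). The log2 fold change was 4.78 ± 0.60 (SE), 5.03 ± 0.18 (SE) without the library labelled cKO 1 and 4.43 ± 0.74 (SE) without WT 2, WT 3 and cKO 4.

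Gm37899 had 0.883 to 2.73 CPM in WT, with a median of 1.68 CPM. It had 1.96 CPM in the library labelled cKO 1 and 7.41, 6.13, 8.19, 6.46 and 7.11 CPM in cKO 2 to 6. The same 5 cKO libraries as for B830012L14Rik lay above every WT library. The log2 fold change of Gm37899 was 1.79 ± 0.32 (SE) with all 12 libraries and 1.97 ± 0.23 (SE) without the library labelled cKO 1. It was 1.45 ± 0.34 (SE) without WT 2, WT 3 and cKO 4. Its estimated counts were not whole in 12 of 12 libraries, so some of its reads were shared with other transcript models.

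Emx1, the gene whose activity marks the cells with Cre, split the libraries in the same way. It had 8.38 to 9.60 CPM in WT, 9.14 CPM in the library labelled cKO 1 and 5.91 to 6.84 CPM in cKO 2 to 6.

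B830012L14Rik is spliced from an exon of 544 bases (109695586 to 109696129) and one of 3961 bases (109698627 to 109702587). The junction below joins the last 50 bases of the first exon, in lower case, to the first 50 of the second, in capitals (GRCm38, plus strand). It is shown because it identifies the transcript with the largest difference, and the counts are not resolved by exon.
B830012L14Rik exon junction: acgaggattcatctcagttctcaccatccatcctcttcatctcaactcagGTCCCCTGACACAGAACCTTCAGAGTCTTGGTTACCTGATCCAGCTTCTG
Matches to the 64 seeds were also counted on the longest transcript of each gene. B830012L14Rik held 25 matches, or 5.55 per kb, and 13.8% of 18921 genes had a higher density. Mirg had 6.02 per kb, with 8.29% of genes higher, against a median of 4.09 per kb over all genes, and Gm37899 had 4.82 per kb. The other 6 genes had 2.97 to 3.97 per kb. Such a match is a string of letters and no measured site. The seeds come from this cluster, which holds 5678 of the 7292 exonic bases of Mirg, and 15 miRNA genes lie inside Mirg. Matches within miRNA genes were not counted apart, so the density of Mirg is not comparable with that of other genes.

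The change in the balance between the transcripts was read within each library, where scaling between libraries has no part. B830012L14Rik had 1.08 to 3.01 counts per 100 counts of Mirg in WT. The ratio was 3.35 in the library labelled cKO 1 and 52.9 to 58.2 in cKO 2 to 6, a range that is narrow beside the step between genotypes. Gm37899 had 205 to 491 counts per 100 counts of B830012L14Rik in WT, 248 in the library labelled cKO 1 and 31.8 to 39.8 in cKO 2 to 6. Gm37899 was thus the larger of the pair in every WT library and the smaller in 5 cKO libraries.

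Meg3 and Rian kept a nearly fixed ratio. Rian had 12.3 to 13.4 counts per 100 counts of Meg3 in WT and 12.8 to 14.6 in cKO, and these ranges overlapped. Mirg had 4.71 to 5.63 counts per 100 counts of Rian in WT, with a median of 4.81 and the highest value in WT 1. In cKO 2 to 6 it had 5.21 to 5.98, and in the library labelled cKO 1 it had 4.74, within the WT range. WT 1 therefore lay among cKO 2 to 6 at this ratio, while the other WT libraries, the highest at 4.87 (WT 3), lay below them. The genotypes overlapped.

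**Figure D2:**
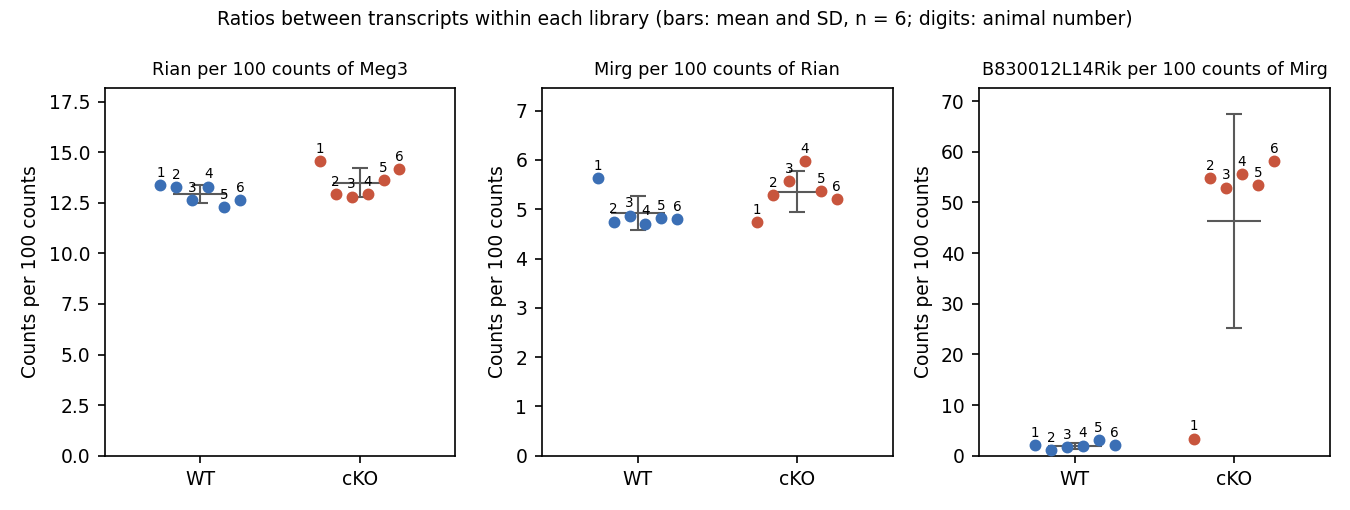
Counts of 1 transcript per 100 counts of another within each library (y axes, linear, from 0) for WT (blue) and cKO (red), with animal numbers and bars for the mean and SD of 6 animals. Rian per Meg3 overlaps between genotypes, and B830012L14Rik per Mirg lies at 1.08 to 3.01 in WT and at 52.9 to 58.2 in cKO 2 to 6.

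The paternally expressed Dlk1, a transmembrane relative of the Notch ligands, had 4.36, 12.6, 8.75, 18.1, 5.83 and 9.18 CPM in WT 1 to 6. In cKO 1 to 6 it had 5.73, 13.4, 20.97, 29.6, 7.71 and 11.3 CPM. The groups overlapped over most of their range, with cKO 4 and cKO 3 above every WT animal. The log2 fold change of Dlk1 was 0.59 ± 0.40 (SE). Without WT 2, WT 3 and cKO 4 it was 0.34 ± 0.43 (SE), and with 1 animal left out it ranged from 0.27 (without cKO 4) to 0.85 (without WT 4).

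Dio3, the deiodinase that inactivates thyroid hormone, had 1.81, 5.04, 4.29, 6.52, 2.16 and 6.42 CPM in WT 1 to 6. In cKO 1 to 6 it had 2.11, 6.92, 7.60, 9.97, 2.61 and 6.41 CPM. The groups overlapped, and WT 1, WT 5, cKO 1 and cKO 5 were the 4 lowest of the 12, as they were for Dlk1. The log2 fold change of Dio3 was 0.44 ± 0.40 (SE), with 0.28 ± 0.47 (SE) without WT 2, WT 3 and cKO 4 and a range from 0.23 (without cKO 4) to 0.61 (without the library labelled cKO 1) when 1 animal was left out. That of Dio3os, the RNA transcribed in the opposite direction beside it, was 0.44 ± 0.34 (SE).

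Dlk1 and Dio3 varied far more between animals than most genes. The coefficient of variation of Dlk1 was 50.6% in WT and 60.8% in cKO, against medians of 9.04% and 8.95% over all 19325 genes tested. In WT 575 genes had a larger one, and in cKO 218. For Dio3 it was 46.5% in WT and 51.1% in cKO. The cKO 4 library, highest in Dlk1 and Dio3, also had the highest summed interneuron markers (834 CPM, against 636 to 755.5 CPM in the other 11) and the lowest dentate granule neuron markers (392 CPM, against 463 to 601 CPM). It had the lowest choroid plexus sum as well, at 158 CPM. The part of tissue composition in the levels of Dlk1 and Dio3 was not tested, and in bulk tissue fewer cells of a type and less RNA per cell cannot be told apart.

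Rtl1, a retrotransposon-derived gene with its main known role in the placenta, was hardly detected. It had 4, 9, 5, 8, 1 and 9 counts in WT 1 to 6 and 7, 12, 10, 13, 6 and 2 counts in cKO 1 to 6, and too few counts to be tested. Rtl1 lies on the minus strand and has 7 miRNA genes inside it, among them antisense ones, and without a stated strand setting its reads and those of the opposite strand cannot be told apart. Begain varied little between animals. It had 106 to 129 CPM in WT, with a median of 112 CPM, and 114.5 to 130 CPM in cKO, with a median of 119 CPM, a log2 fold change of 0.05 ± 0.05 (SE). The groups overlapped, and the level without WT 2, WT 3 and cKO 4 differed by 0.10 ± 0.03 (SE). Its coefficient of variation was 8.18% in WT and 4.40% in cKO.

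Compared per length, in CPM per kb of merged exons, the WT levels of the 9 differed widely. Meg3 came first, at 267 ± 26.3 (SD, n = 6), followed by Rian at 34.2 ± 2.65, Begain at 26.3 ± 2.15 and Mirg at 4.21 ± 0.328. The ranges of these 4 did not overlap. Dio3, at 2.16 ± 1.00, and Dlk1, at 1.73 ± 0.878, came next with overlapping ranges. Gm37899 had 0.205 ± 0.0818 and B830012L14Rik 0.133 ± 0.0413, also overlapping, and Rtl1 had 0.0201 ± 0.0113. In cKO B830012L14Rik reached 3.71 ± 1.85 CPM per kb, close to Mirg at 4.67 ± 1.00 and above the mean of Dlk1 at 2.61 ± 1.59. This mean of B830012L14Rik includes the library labelled cKO 1, the lowest at 0.175 CPM per kb, and the highest cKO library had 5.72.

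Of the 8 transcripts with enough counts, 7 were higher in cKO, with a median log2 fold change of 0.30. Over all 19325 genes tested, 10325 were higher and 9000 lower, with a median of 0.01. The median of the 8 was 0.14, with 6 higher, without cKO 4, and 0.19, with 6 higher, without WT 2, WT 3 and cKO 4. It was 0.42, with 8 higher, without the library labelled cKO 1. Only B830012L14Rik passed an adjusted p of 0.05 in the quasi-likelihood test of edgeR, 1 of 8. Over all genes 2 of 19325 passed, or 0.0103%, both of them higher in cKO, while DESeq2 called 76 genes, 24 higher and 52 lower. The call of B830012L14Rik was absent in limma-voom, with animal number as a block, without WT 2, WT 3 and cKO 4 together, and when any 1 animal other than cKO 1 was left out. A filter of at least 1 CPM in 6 libraries removed B830012L14Rik before the test. Without the library labelled cKO 1, or in DESeq2, Gm37899 passed as well. Genotypes without overlap were found for 0 of the 8 and for 0.404% of all genes, and at B830012L14Rik and Gm37899 the overlap came from the library labelled cKO 1 alone. As these transcripts were chosen with this comparison known, the counts say nothing beyond the values above.

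**Figure D3:**
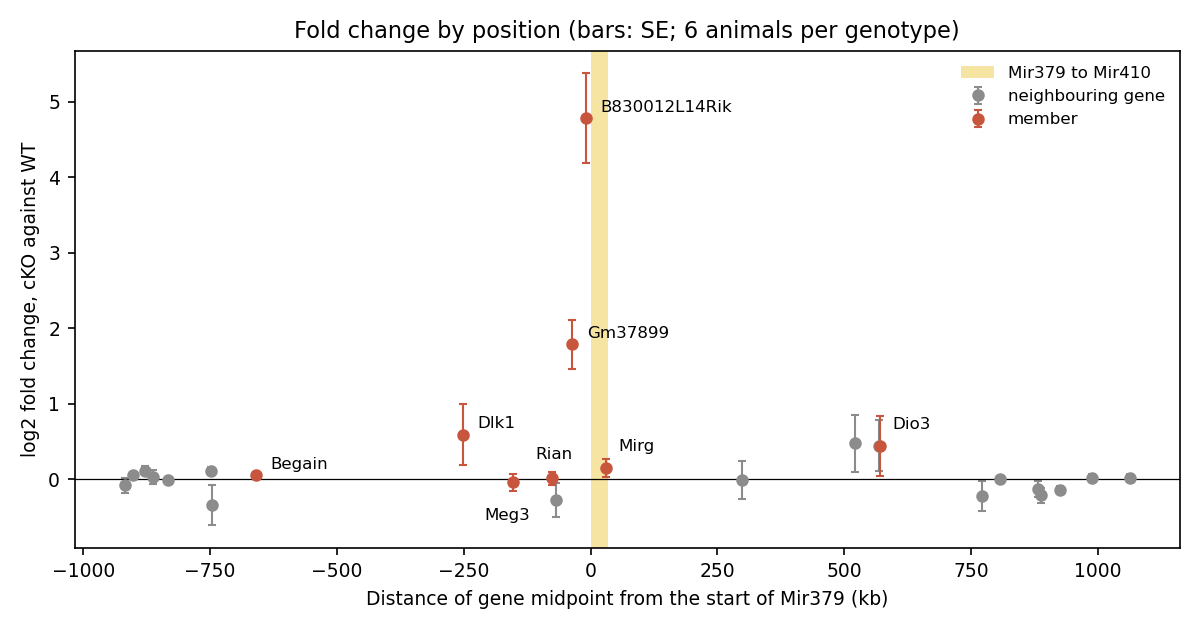
The log2 fold change of cKO against WT (y axis, bars for SE) of each tested gene within 1000000 bases of the cluster, by the distance of its midpoint from the start of Mir379 (x axis, kb). B830012L14Rik at 4.78 and Gm37899 at 1.79 lie directly before the cluster (yellow), and none of the 18 neighbouring genes (grey) passed.

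The other genes around the cluster were read from the annotation, not from their values. The table held 48 further rows within 1000000 bases of the cluster, of which 18 had enough counts to be tested. None passed in edgeR, and 2 of the 18 had an unadjusted p under 0.05, against 1843 of all 19325 genes. In cKO 9 were higher and 9 lower. Their median log2 fold change was -0.00, against 0.01 over all genes. The 4 with the smallest p were Dync1h1, the heavy chain of cytoplasmic dynein (-0.14 ± 0.05, SE), Gm35558 (-0.21 ± 0.10), Wdr25 (0.11 ± 0.05) and the mitochondrial carrier Slc25a29 (0.11 ± 0.06). DESeq2 and limma-voom called none of the 18 either.

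Between animals of 1 genotype the levels were compared in pairs. The transcripts were chosen with earlier results of these data known, so these p-values are a description as well. Pearson's r and Spearman's rho of log2 CPM were computed over 6 animals, with exact two-sided permutation of the 720 pairings, for 28 pairs in WT and 15 in cKO. Pairs with B830012L14Rik or Gm37899 in cKO were left out, because the library labelled cKO 1 lies apart there and only 5 animals remain. None of the 43 pairs passed an adjusted p of 0.05, although 9 had an unadjusted p under 0.05. The lowest adjusted p was 0.0597, reached by 5 pairs, which is also the lowest that a lone pair could reach.

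Meg3 and Rian, the most abundant of the non-coding RNAs, had similar orders of animals in both genotypes. In WT r was 0.945 (exact permutation p = 0.00694, adjusted p = 0.0597) and rho was 0.829 (exact permutation p = 0.0583). In cKO r was 0.973 (exact permutation p = 0.0167, adjusted p = 0.102) and rho was 0.886 (exact permutation p = 0.0333). Without the 2 animals farthest from the median of Meg3, r was 0.563 in WT (without WT 3 and WT 6) and 0.480 in cKO (without cKO 1 and cKO 4). Few animals over a narrower range then remained, which by itself can lower r.

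The third maternal RNA, Mirg, ordered the cKO animals much as they did. For Meg3 and Mirg r was 0.987 in cKO (exact permutation p = 0.00556, adjusted p = 0.0597), rho was 0.943 (exact permutation p = 0.0167), and r was 0.736 without cKO 1 and cKO 4. For Rian and Mirg r was 0.987 in cKO (exact permutation p = 0.00694, adjusted p = 0.0597), rho was 0.943 (exact permutation p = 0.0167), and r was 0.732 without the same animals. In WT the values were lower. For Meg3 and Mirg r was 0.530 (exact permutation p = 0.265, adjusted p = 0.6) and rho was 0.429 (exact permutation p = 0.419). For Rian and Mirg r was 0.614 (exact permutation p = 0.194, adjusted p = 0.492) and rho was 0.257 (exact permutation p = 0.658). Both values moved widely with single animals. Without WT 1, with the highest Mirg for its Rian, r was 0.96 for Meg3 and Mirg and 0.99 for Rian and Mirg, and without WT 6 it was -0.01 and 0.07. Without the 2 WT animals farthest from the median, r turned to -0.714 for Meg3 and Mirg and to -0.968 for Rian and Mirg. These values rest on few animals over a narrower range. The difference of r between genotypes was not tested.

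Dlk1 and Dio3, 2 protein-coding genes at opposite ends of the region, ordered the animals alike as well. In WT r was 0.893 (exact permutation p = 0.0194, adjusted p = 0.105) and rho was 0.943 (exact permutation p = 0.0167). In cKO r was 0.932 (exact permutation p = 0.00556, adjusted p = 0.0597) and rho was 1.000, with the smallest exact p that Spearman's rho allows here, 0.00278. Without the 2 animals farthest from the median of Dlk1, r was 0.802 in WT and 0.854 in cKO. With 1 animal left out r ranged from 0.80 to 0.98 in WT and from 0.88 to 0.97 in cKO, and that of Meg3 and Rian from 0.86 to 0.99 and from 0.93 to 0.99. These relations rest on 214 to 1401 counts of Dlk1 and 89 to 472 counts of Dio3 per library.

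Begain and B830012L14Rik had opposite orders in WT. For this pair r was -0.853 (exact permutation p = 0.00417, adjusted p = 0.0597), rho was -0.943 (exact permutation p = 0.0167), and r was -0.651 without WT 2 and WT 5. B830012L14Rik had at most 42 counts in a WT library, so its order among WT animals rests on few reads. Begain and Meg3, both well counted, had an r of -0.077 in WT (exact permutation p = 0.886, adjusted p = 0.958; rho -0.257, exact permutation p = 0.658).

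**Figure D4:**
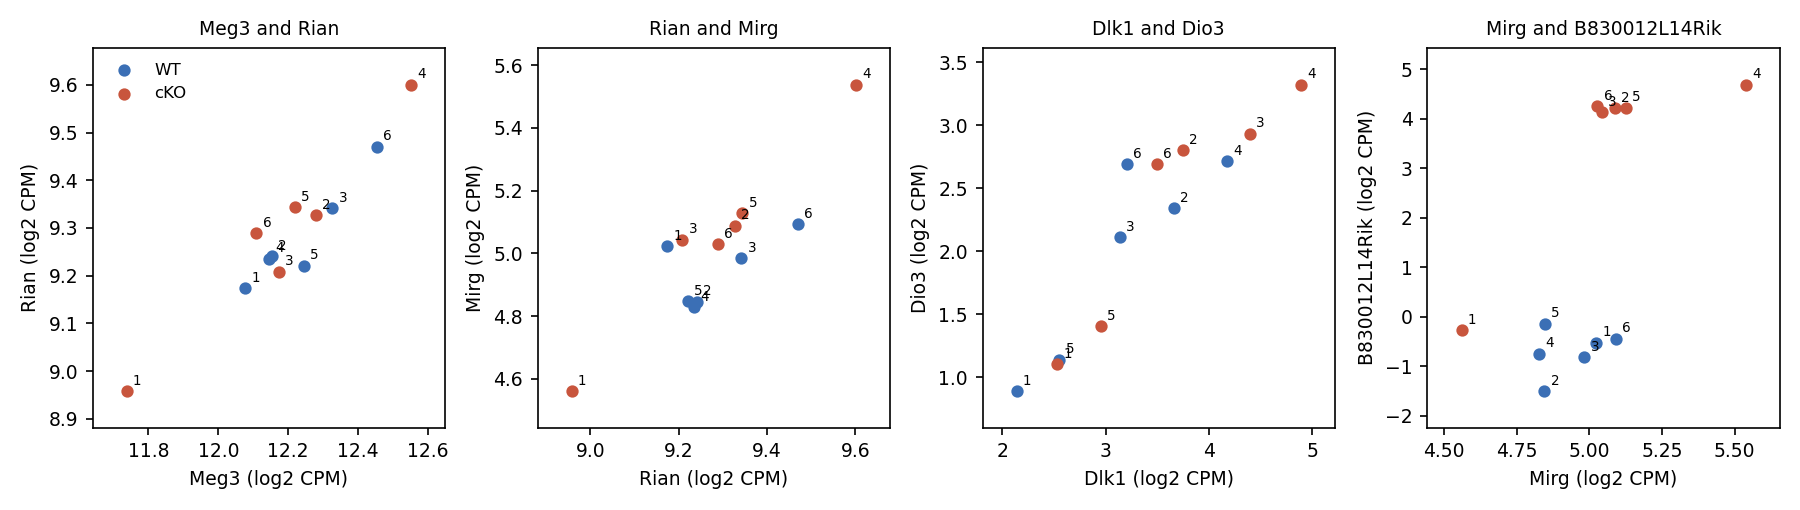
Log2 CPM of pairs of transcripts in WT (blue) and cKO (red) animals, each point 1 animal with its number. The library labelled cKO 1 and cKO 4 lie at the ends of the Meg3, Rian and Mirg axes, the points of Dlk1 and Dio3 spread along the whole range, and in the last panel cKO 2 to 6 lie above all WT animals at B830012L14Rik.

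The genes most like each transcript over the 12 animals were ranked among 15544 others of at least 1 CPM, by Pearson's r after the genotype means were taken away. These correlations describe libraries that share tissue makeup and depth. Rian was first for Meg3 (r = 0.967), and Meg3 was first for Rian. Zfr2 (0.956) and Celf5 (0.938) followed for Meg3, and Gm21981 (0.939) and Gpr162 (0.933) for Rian. Mirg stood in place 6 for Meg3 (0.906) and in place 4 for Rian (0.920). For Mirg itself the first were Dgkq (0.945), Mst1r (0.936) and Rian.

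For Dlk1 the most like were Tmem255a (0.964), Fam57a (0.958) and the growth factor Vegfd (0.952). For Dio3 they were Vegfd (0.982), Tcerg1l (0.952) and the nuclear receptor Nr2f2 (0.947), and Dio3 stood in place 16 for Dlk1 (0.915). For Begain they were Rab1b (0.927), Scamp4 (0.927) and Nckipsd (0.926), and Meg3 had only 0.159 with Begain. With the genotype difference kept in, Gm37899 was the most like B830012L14Rik (0.956), followed by Il10ra (0.892) and Myom1 (0.885). For Gm37899, Zscan20 (0.906) and Zfyve19 (0.878) followed B830012L14Rik.

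RefSeq promoter windows, 250 bases before to 50 after an annotated start, were found for 6 of the 9 genes. Those of Meg3 and Rian are shown because each RNA was the most like the other over the 12 animals once the genotype means were taken away. For Meg3, which has 2 windows, the first is shown. In it capitals mark matches on either strand to CCAAT, to the cAMP response element TGACGTCA and to the TATA box TATAAA, whose matches on both strands overlap (chr12:109540746-109541045, GRCm38.p6, plus strand).
Meg3 promoter: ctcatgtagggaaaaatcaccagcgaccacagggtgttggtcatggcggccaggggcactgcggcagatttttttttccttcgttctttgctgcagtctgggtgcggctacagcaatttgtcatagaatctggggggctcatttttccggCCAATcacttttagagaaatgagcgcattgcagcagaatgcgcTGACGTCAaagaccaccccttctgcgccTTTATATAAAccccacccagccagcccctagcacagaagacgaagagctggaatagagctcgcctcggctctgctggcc
The Rian window held none of these motifs nor the GC box GGGCGG (chr12:109603695-109603994, GRCm38.p6, plus strand).
Rian promoter: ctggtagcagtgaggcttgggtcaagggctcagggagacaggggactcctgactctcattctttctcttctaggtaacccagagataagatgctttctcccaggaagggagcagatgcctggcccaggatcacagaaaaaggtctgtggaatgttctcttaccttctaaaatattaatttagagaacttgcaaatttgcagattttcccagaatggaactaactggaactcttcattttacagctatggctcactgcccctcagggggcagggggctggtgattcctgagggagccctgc
TGACGTCA was found in 1.79% of 32851 windows of this length, TATAAA in 13.6%, CCAAT in 37.4% and GGGCGG in 35.7%. The Meg3 window shown held 13 CpG dinucleotides, the other Meg3 window 1 and that of Rian 0, against a median of 7 over all windows, and the windows of Dlk1 and Dio3 held 9 and 25.

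The genes of the pathways in which Dlk1 and Dio3 act were examined through lists of named genes. Of 30 Notch pathway genes, all tested, none passed in edgeR and 3 had an unadjusted p under 0.05, as 1843 of all 19325 genes had. A total of 25 were higher and 5 lower in cKO. Their median log2 fold change was 0.05, against 0.01 over all genes. The receptor Notch3, an RNA of vascular smooth muscle cells and pericytes, averaged 16.8 ± 2.03 CPM among the WT animals and 21.3 ± 1.94 CPM among the cKO animals (SD, n = 6), a log2 fold change of 0.34 ± 0.08 (SE). Its adjusted p was 0.314 in edgeR, where it did not pass, and 0.0259 in DESeq2, where it did. Summed markers of these vessel-wall cells, all 10 detected, moved with it, from 224 to 258 CPM in WT and from 268 to 328 CPM in cKO, and their part in the value of Notch3 was not tested. Rfng (0.13 ± 0.05), a glycosyltransferase that modifies Notch, the Notch target Hey2 (0.39 ± 0.15) and the coactivator Maml1 (0.13 ± 0.06) came next.

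Of 18 tested thyroid hormone genes, none passed in edgeR and 1 had an unadjusted p under 0.05, against 1843 of all 19325 genes. In cKO 9 were higher and 9 lower, with a median of -0.00. Those with the smallest p were the corepressor Ncor1 (-0.15 ± 0.05, SE), the receptor partner Rxra (0.10 ± 0.05), the transporter subunit Slc7a5 (0.14 ± 0.08) and Dio2, the deiodinase that activates thyroid hormone (-0.08 ± 0.05). DESeq2 and limma-voom called none of these 18.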

How the data were processed

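The authors deposited estimated counts, 1 column per animal, which are expected counts per gene symbol before any scaling. Per the submitters' processing notes they used Salmon 1.3.0 and the genome build GRCm38. Per the labels' protocols, RNA was taken with Trizol-chloroform and made into libraries with a NEB Next Ultra kit. The annotation behind the counts, the strand setting and the summing of transcripts are not stated, so overlapping genes may share reads. Between 24.8% and 25.9% of values per library differed from a whole number by more than 1e-06, and counts were rounded for the models. No 2 libraries of a genotype agreed within counting noise (lowest chi-square per degree of freedom 8.26 over 30 pairs).

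Genotypes were compared over all 12 libraries in edgeR 4.0.16 under R 4.3.3 by its quasi-likelihood test, with TMM scaling and filterByExpr (count minimum 10, total 15). Benjamini-Hochberg adjustment covered the 19325 genes tested, calls were made at 0.05, and the steps were tested on simulated data. DESeq2 1.42.0 and limma-voom (limma 3.58.1), other scalings, filters, a block by animal number and leaving animals out were alternatives. Log2 CPM for correlations had a prior count of 2, and covariation and likeness used genes with a mean of at least 1 CPM over all 12 libraries. Coordinates came from GENCODE M21, which held 32940 of the 33250 symbols.

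The members and lists were chosen with earlier results of these data known. Named genes were all 9 members, for each list any called gene and otherwise the 4 with the smallest p, and for each transcript the 3 most like it. Some single genes are not reported here.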

Additional observations from a re-analysis of the deposited data

Results flagged for a closer look

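Among the 9 transcripts in each genotype, 18 groups of 6 animals, 3 groups held an animal whose gap to its nearest neighbour was a larger share of the group's range than Dixon's 95% critical value for 6 samples. Chance gives this in about 1 of 20 independent groups, or about 0.9 of 18. These groups share libraries and are not independent, and the transcripts were chosen with their values known. The number flagged is therefore a description. B830012L14Rik in the library labelled cKO 1, at 0.788 CPM, lay far below 17.4 to 25.8 CPM in cKO 2 to 6. Gm37899 in the same library, at 1.96 CPM, lay far below 6.13 to 8.19 CPM. Begain in cKO 4, at 130 CPM, lay above 114.5 to 120 CPM in the other cKO animals, close to the highest WT value of 129 CPM.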

How the results depend on the processing

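Over all genes, the 2 calls of edgeR became 76 in DESeq2 (24 higher, 52 lower), 0 in limma-voom (1847 genes with an unadjusted p under 0.05), 1 without the low-count filter, 1 with at least 1 CPM in 6 libraries, which was none of the 9 transcripts, and 0 without WT 2, WT 3 and cKO 4 (1457 unadjusted), an alternative chosen after seeing the data. With animal number as a block 0 genes passed (1724 unadjusted), and the call of B830012L14Rik was lost, at a log2 fold change of 4.53. Over all genes the numbers showed little pairing. Same-numbered deviations had correlations of -0.266 to 0.25, and 1 of 6 pairs correlated best with its own number. This cannot show that the animals were unpaired, and the labels do not say. For Dlk1 and Dio3 the block narrowed the error, to log2 fold changes of 0.53 ± 0.14 (SE) and 0.40 ± 0.11 (SE). Neither passed in edgeR with the block (adjusted p = 0.483 for both). Leaving out 1 animal gave 0 to 6 calls, 6 without the library labelled cKO 1 and 0 without any other animal (1257 to 2799 unadjusted). DESeq2 called 1 Notch pathway gene, Notch3, and 1 imprinted gene elsewhere, Snhg14. The 3 other scalings gave 2 calls each.

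Leaving out 1 animal moved the log2 fold change of Meg3 between -0.12 and 0.03 and that of Rian between -0.05 and 0.07, and Rian had -0.05 without WT 2, WT 3 and cKO 4. It moved Dlk1 between 0.27 and 0.85, Dio3 between 0.23 and 0.61, Mirg between 0.04 and 0.23, B830012L14Rik between 4.62 and 5.03 and Gm37899 between 1.65 and 1.97. In WT, r of Meg3 and Mirg ranged from -0.01 to 0.96. Per kb of the longest transcript, WT levels were 332 CPM for Meg3, 77.1 for Rian, 8.02 for Mirg and 35.4 for Begain, in the same order. The cause of these shifts was not tested. With 6 animals no lone pair could pass the adjusted threshold, and Rtl1, at 1 to 13 counts, allows no comparison.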

Other observations

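In direction, imprinted genes outside the region were split evenly between the genotypes. Of 50 with a row, 44 were tested, and 22 were higher and 22 lower in cKO, with a median log2 fold change of 0.00. None passed in edgeR, while 8 of the 44 had an unadjusted p under 0.05, against 1843 of all 19325 genes. Snhg14, the long non-coding host of small nucleolar RNAs at the Prader-Willi locus, averaged 254 ± 55.5 CPM among WT animals and 179 ± 27 CPM among cKO animals (SD, n = 6), a log2 fold change of -0.50 ± 0.14 (SE) that DESeq2 called (adjusted p = 0.0395) and edgeR did not (adjusted p = 0.343). The synaptic scaffold Ppp1r9a (-0.20 ± 0.05, SE), the antisense RNA Kcnq1ot1 (-0.23 ± 0.07) and the potassium channel Kcnq1 (0.72 ± 0.24), which had under 1 CPM, did not pass either. Kcnq1 and Kcnq1ot1 overlap on opposite strands, and their reads cannot be told apart without a strand setting.

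Of 23 tested regulators of imprints or of the cluster, 9 were higher and 14 lower in cKO, with a median of -0.03, none passed in edgeR, DESeq2 or limma-voom, and 6 had an unadjusted p under 0.05 in edgeR, as 1843 of all 19325 genes had. Among those with the smallest p were the chromatin remodeller Atrx (-0.28 ± 0.08, SE), the methylcytosine dioxygenase Tet2 (-0.18 ± 0.05) and the zinc finger protein Zfp445 (-0.11 ± 0.04), which maintains imprints.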
